A study of Homo sapiens with 4 samples.

Results

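The human alpha and beta globin loci were examined in chromatin immunoprecipitation and sequencing (ChIP-seq) data for DPF2 and for crotonylated lysine 14 of histone H3 (H3K14cr). The members were 9 globin genes, HBB, HBD, HBG1, HBG2 and HBE1 on chromosome 11 and HBZ, HBM, HBA2 and HBA1 on chromosome 16, chosen by name and taken at fixed hg19 positions together with their regulatory regions. The beta locus was chr11:5240001-5315000, with 75 tiles of 1 kb, of which 67 held a read in at least 1 library. The alpha locus was chr16:95001-240000, with 145 tiles, of which 144 held a read. Together these were 211 of 2598309 covered tiles of the genome. All 4 libraries came from wild-type K562 cells, an established cell line from a human chronic myeloid leukaemia that keeps erythroid features. DPF2 was precipitated for 2 of them, which held 7787444 and 13317496 reads, and H3K14cr for the other two, with 10880366 and 17369133 reads. No input or other control library was used, and nothing was measured on RNA, so the cells' globin expression was not checked here.

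The beta cluster is read in the order of development from HBE1 (embryonic epsilon) through HBG2 and HBG1 (fetal gamma) to HBD (minor adult delta) and HBB (adult beta), and a locus control region upstream of HBE1, made of DNase I hypersensitive sites HS1 to HS5, acts on all of them. The alpha cluster holds HBZ (embryonic zeta), HBM (mu) and the adult pair HBA2 and HBA1. Its remote enhancers, of which HS-40 is the main one in human erythroid cells, lie upstream of these genes. K562 cells are known for embryonic and fetal globins rather than adult beta globin. DPF2 belongs to the BAF complexes, which remodel chromatin, and its paired PHD fingers bind histone H3 acylated at lysine 14, the residue that H3K14cr marks.

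Levels are given as reads in a library scaled to 1000000 reads (CPM) and as a fold over the chromosome mean, which is the mean of the covered tiles of the same chromosome in the same library. Libraries precipitated with the same antibody agreed within sampling noise. The chi-square of their tile counts, divided by its degrees of freedom, was 1.05 (DPF2) and 0.835 (H3K14cr) in the alpha locus, and 0.572 (DPF2) and 1.15 (H3K14cr) in the beta locus. They were therefore counted as 1 sample per antibody, and the labels do not say whether they came from separate cultures. Intervals are exact, at 95% confidence, and cover counting error only. The p-values for enrichment measure counting error within 1 library. Those of the test between antibodies measure spread between libraries. Whether that spread includes spread between cultures is not known, so no p-value can be taken to measure it.

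Of the 9 genes, 2 had an entry in the RefSeq promoter table (GRCh38.p14), HBD and HBM. Their promoters are shown because no others were available. By CPM in 2 kb windows HBM was the highest of the 9 genes for both antibodies, and HBD lay near the chromosome mean, between HBM and the lowest genes. Whether promoter sequence bears on these levels was not tested. Each sequence runs 5′ to 3′ on the gene's own strand, from 250 bases before the annotated start to 50 after it. Capitals mark matches, on either strand, to the GATA factor core GATAA, to the CCAAT box, to the CACCC box, and to the TATA box letters TATAA or the variant ATAAAA. The HBD promoter is on the minus strand at chr11:5234434-5234733, and the HBM promoter is on the plus strand at chr16:165728-166027, both in GRCh38.p14 coordinates, a different build from the signal.
HBD: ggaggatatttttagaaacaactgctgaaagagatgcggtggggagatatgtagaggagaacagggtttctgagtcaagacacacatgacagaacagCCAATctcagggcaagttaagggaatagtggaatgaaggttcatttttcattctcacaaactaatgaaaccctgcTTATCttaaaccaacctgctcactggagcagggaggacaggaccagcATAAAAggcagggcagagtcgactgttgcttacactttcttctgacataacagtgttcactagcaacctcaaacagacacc
HBM: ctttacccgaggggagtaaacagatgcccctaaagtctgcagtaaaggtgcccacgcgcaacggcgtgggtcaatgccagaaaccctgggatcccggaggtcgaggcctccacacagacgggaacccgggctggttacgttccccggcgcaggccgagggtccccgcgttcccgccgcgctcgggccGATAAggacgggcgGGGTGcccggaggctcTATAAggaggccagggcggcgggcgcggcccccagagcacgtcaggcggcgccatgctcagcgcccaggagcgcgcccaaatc
Both promoters hold GATAA, read on the opposite strand as TTATC at position -78 in HBD and on the gene's strand at -63 in HBM, counted from the start at its first letter. This motif occurs in 22.7% of the 35116 promoters of the table on 1 strand or the other. HBD holds CCAAT at -153 and ATAAAA at -31, which occur in 34.6% and 15.99% of promoters. HBM holds TATAA at -33 and CACCC, read as GGGTG, at -49, which occur in 20.4% and 59.9%. No pair of the marked matches overlaps. The promoters also differ in base composition: HBD has 44.7% G and C, with 20.02% of promoters lower, and HBM has 69.3%, with 78.0% of promoters lower, against a median of 58.7%.

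By CPM and by fold over the chromosome mean, the strongest signal among the globin elements lay over upstream regulatory sites of the alpha cluster. For each element the reads within 1 kb on either side were summed. HS-40 was taken at chr16:163500, and HS-48, HS-33 and HS-10 at the distance in kb upstream of HBZ that their names give, so their positions are approximate. HS-40 had 4.62 and 5.71 CPM in the DPF2 libraries and 5.97 and 6.28 CPM in the H3K14cr libraries, from 36 and 76 reads and from 65 and 109 reads. HS-10 had 6.29 and 4.88 CPM for DPF2 and 5.70 and 6.97 CPM for H3K14cr. Both sites stood high in all 4 libraries, and the values of the antibodies overlapped at HS-10 but not at HS-40, where H3K14cr was higher in this window. Within 500 bp of the HS-40 position the order was reversed, with mean folds over the chromosome mean of 6.20 for DPF2 and 5.20 for H3K14cr. In pooled reads the HS-40 window was 4.54-fold over the chromosome mean for DPF2 (interval 3.74 to 5.46) and 5.11-fold for H3K14cr (4.38 to 5.93), above 99.7% of all 2 kb windows of the genome for both antibodies, and the ratio of pooled reads, DPF2 over H3K14cr, was 0.862 (0.673 to 1.10). HS-10 was 4.62-fold (3.81 to 5.55) for DPF2 and 5.38-fold (4.63 to 6.22) for H3K14cr.

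HS-33 and HS-48 were lower but also above the chromosome mean in every library. HS-33 had 3.47 and 4.13 CPM for DPF2 and 4.69 and 5.47 CPM for H3K14cr, and its pooled folds were 3.32 (2.64 to 4.12) and 4.29 (3.62 to 5.05). HS-48 had 2.44 and 3.15 CPM for DPF2 and 2.94 and 3.97 CPM for H3K14cr, at 2.47-fold (1.89 to 3.18) and 2.97-fold (2.42 to 3.61). The whole 40 kb stretch that spans these sites, chr16:153001-193000, lay above the chromosome mean too, at 1.95-fold and 2.14-fold in the DPF2 libraries and 2.31-fold and 2.59-fold in the H3K14cr libraries. For both antibodies each of the 4 sites exceeded the level of this stretch, which holds their positions but ends within the HS-10 window. The order of the loci depends on the background. Over the mean of up to 100 kb on either side of each locus, the DPF2 and H3K14cr folds were 3.29 and 3.70 at HS-40 and 3.55 and 3.83 at HS-10, below HS3 of the beta locus (5.05-fold and 5.29-fold) for both antibodies and, for DPF2, below HS2 (6.03-fold) and HS4 (4.15-fold). The alpha locus starts at chr16:95001, fewer than 100 kb from the chromosome end. Its flanks held 117 covered kb, against 179 for the beta locus, so the backgrounds are not alike in extent.

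**Figure D1:**
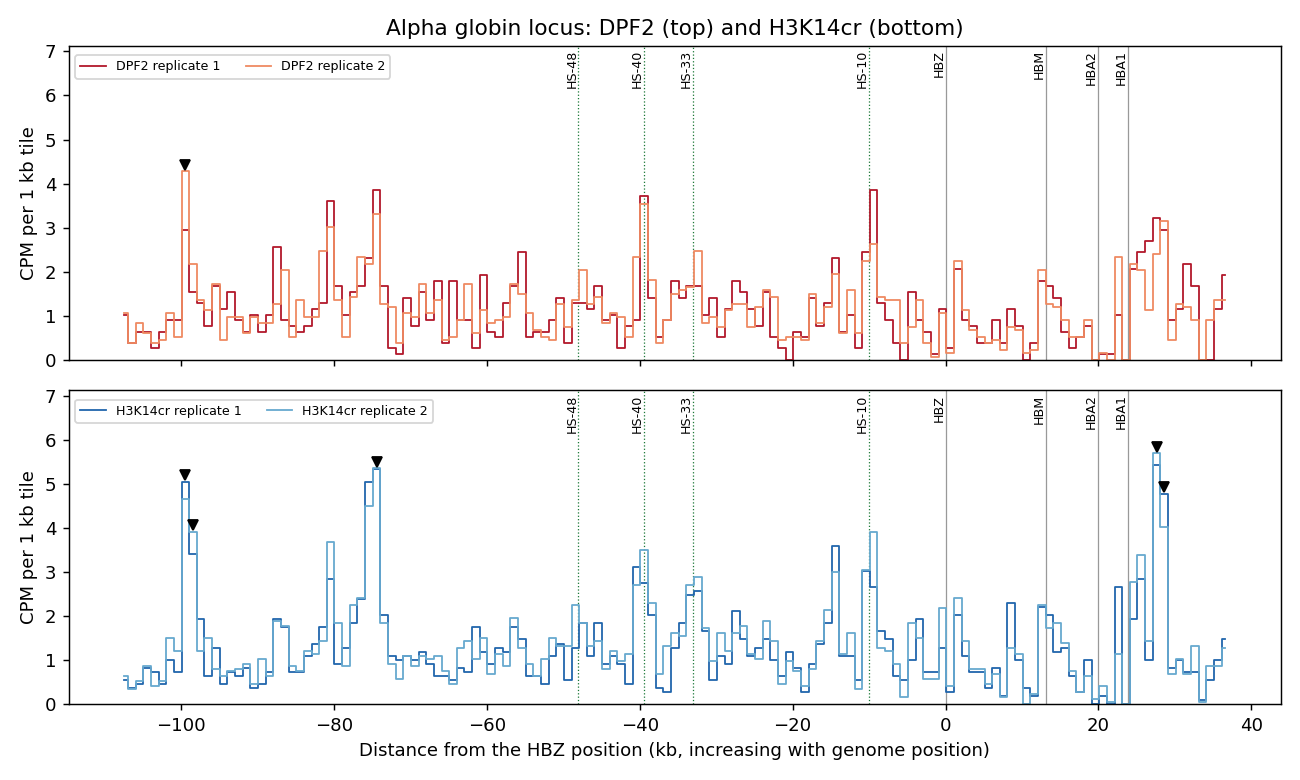
Reads per 1 kb tile, as CPM (vertical axis), along the alpha globin locus, by distance in kb from the HBZ position (horizontal axis). DPF2 libraries are in the top panel and H3K14cr libraries in the bottom panel; dotted lines mark the upstream sites, solid lines the genes, and black triangles tiles called enriched in both libraries of that antibody. The tallest DPF2 tile by mean CPM holds HS-40, while the tallest H3K14cr tile lies past HBA1.

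Among the alpha genes, HBM had the highest level in 2 kb windows, and the adult pair could hardly be read. HBM, an alpha-like globin gene between HBZ and HBA2, had 3.47 and 3.30 CPM in the DPF2 libraries and 4.23 and 3.97 CPM in the H3K14cr libraries. Its pooled folds were 2.88 (2.25 to 3.63) for DPF2 and 3.38 (2.79 to 4.06) for H3K14cr, above 98.9% of 2 kb windows for both. H3K14cr was higher in both of its libraries, but the ratio of pooled reads, DPF2 over H3K14cr, was 0.826 with an interval of 0.606 to 1.12 that holds 1. HBZ, the embryonic zeta gene, had 1.41 and 1.20 CPM for DPF2 and 1.65 and 2.59 CPM for H3K14cr. At its position DPF2 was 1.09-fold (0.72 to 1.59), an interval that holds the chromosome mean, and H3K14cr was 1.85-fold (1.42 to 2.37). From 400 to 1000 bp past that position the window held 0 reads in every library. How much of it can be mapped was not tested, so its level cannot be read as low occupancy. The higher HBZ signal lay further along, in the tile chr16:204001-205000, at 2.05 and 2.25 CPM for DPF2 and 2.02 and 2.42 CPM for H3K14cr. The highest 400 bp stretch within 2 kb of the HBZ position was 1700 or 1800 bp from it in all 4 libraries.

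HBA2 and HBA1, which encode the same adult alpha chain, differed in their windows. HBA2 had 0.385 and 0.826 CPM for DPF2 and 0.551 and 0.864 CPM for H3K14cr, below the chromosome mean for both antibodies, at 0.57-fold (0.31 to 0.95) and 0.62-fold (0.38 to 0.94). HBA1 had 1.54 and 1.20 CPM for DPF2 and 1.19 and 1.73 CPM for H3K14cr, at 1.13-fold (0.75 to 1.64) and 1.26-fold (0.91 to 1.70). Within the HBA1 window the reads lay in the tiles on either side of the gene's position. The tile chr16:226001-227000, which holds that position, had 0 reads in every library, which allows up to 0.142 CPM for the pooled DPF2 libraries and 0.106 CPM for the pooled H3K14cr libraries. The tile with the HBA2 position, chr16:222001-223000, had 0 reads in each DPF2 library, and 0 and 2 reads in the H3K14cr libraries. These genes are near-identical copies, and how the authors placed reads that match both is not given in the sources used here. A low value at either gene can therefore not be read as low occupancy. With 2 kb on each side, which takes in the tiles past HBA1, the DPF2 and H3K14cr folds were 2.47 and 2.87 at HBA1, above the 2.14 and 2.42 at HBM.

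In the beta locus the level over the control region was higher than that over the span of the genes. Over its 16 kb, chr11:5296001-5312000, the level was 2.09-fold and 1.98-fold over the chromosome mean in the DPF2 libraries and 2.18-fold and 2.03-fold in the H3K14cr libraries. Over the 38 covered kb from HBB to just before the HBE1 position, chr11:5248001-5291000, it was 0.86-fold and 0.95-fold for DPF2 and 0.95-fold and 1.01-fold for H3K14cr. The control region exceeded the genes in each library, by 2.42 times (1.83 to 3.21) and 2.09 times (1.69 to 2.58) for DPF2 and by 2.30 times (1.83 to 2.89) and 2.001 times (1.67 to 2.39) for H3K14cr.

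HS2, the site with the strongest classical enhancer activity of the region, had the highest DPF2 level in the beta locus. The sites were placed at their textbook distances of 6, 11, 15, 18 and 21 kb upstream of HBE1, so these positions are approximate as well. HS2 had 2.70 and 2.85 CPM in the DPF2 libraries and 2.02 and 1.84 CPM in the H3K14cr libraries, so both DPF2 values lay above both H3K14cr values. Its pooled folds were 3.47 (2.64 to 4.48) and 2.34 (1.76 to 3.06), but the ratio of pooled reads, 1.46, had an interval of 0.994 to 2.16 that holds 1. HS3 had 2.70 and 1.88 CPM for DPF2 and 3.12 and 2.25 CPM for H3K14cr, at 2.71-fold (1.98 to 3.61) and 3.17-fold (2.48 to 3.98). At HS3 the antibodies overlapped, and H3K14cr was highest there among the beta sites. HS4 had 2.24-fold for DPF2 (1.58 to 3.07) and 2.25-fold for H3K14cr (1.68 to 2.96), and HS1 had 1.88-fold (1.29 to 2.66) and 1.52-fold (1.06 to 2.11). At HS1, too, the DPF2 values (1.54 and 1.502 CPM) lay above the H3K14cr values (1.10 and 1.32 CPM), with a ratio of 1.22 and an interval of 0.734 to 2.04. HS5, the outermost site and known as an insulator element, did not stand above the chromosome mean, at 0.94-fold (0.54 to 1.53) for DPF2 and 0.78-fold (0.46 to 1.23) for H3K14cr. Thus 4 of the 5 beta sites and 4 of the 4 alpha sites had an interval above 1 for each antibody. The share of all 2 kb windows of the genome with such an interval was not computed. The whole alpha locus stood at 1.96-fold to 2.32-fold in the 4 libraries, so an interval above 1 alone does not set its sites apart.

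**Figure D2:**
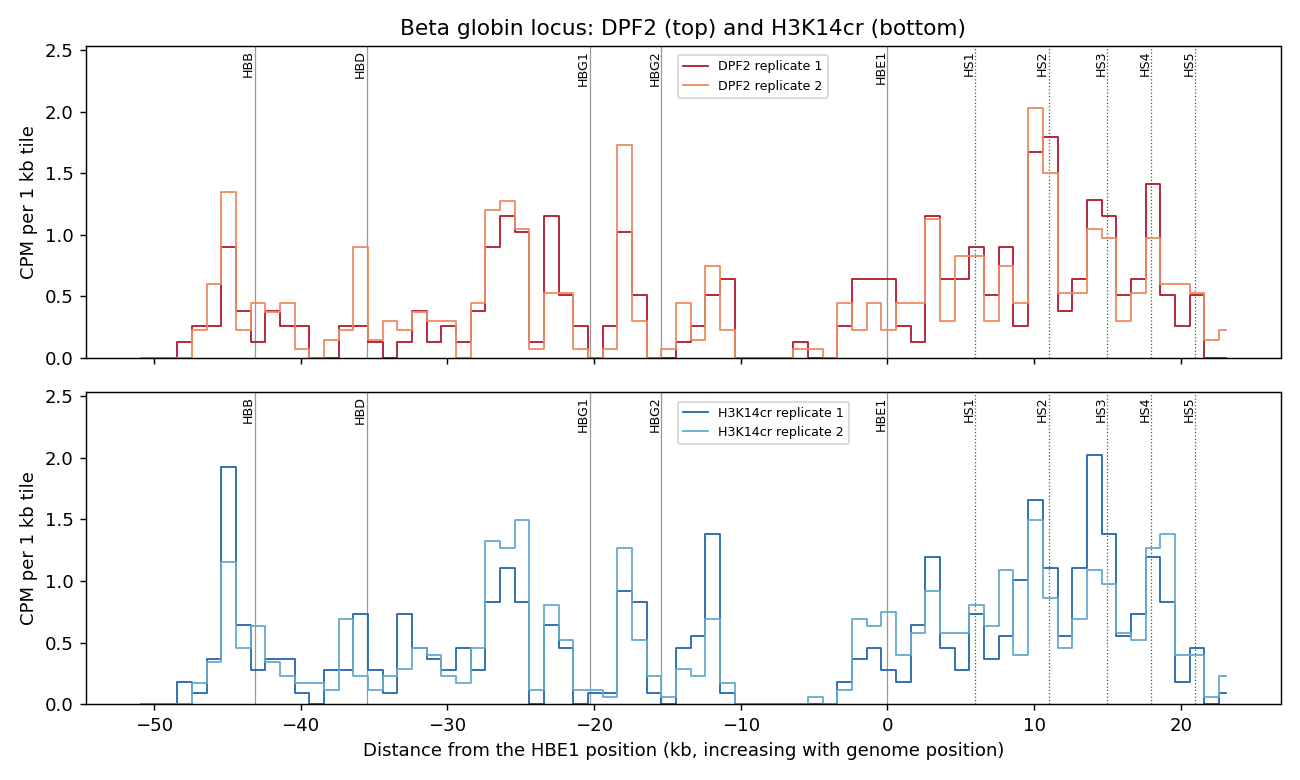
Reads per 1 kb tile, as CPM (vertical axis), along the beta globin locus, by distance in kb from the HBE1 position (horizontal axis). DPF2 libraries are in the top panel and H3K14cr libraries in the bottom panel, with solid lines at the genes and dotted lines at HS1 to HS5; no tile was called enriched in both libraries of an antibody. The tiles on and beside HS2 are the highest for DPF2, and part of the stretch between HBG2 and HBE1 has no reads in any library.

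The beta genes lay near or below the chromosome mean. HBE1, the embryonic gene nearest to the control region, had 1.28 and 0.826 CPM for DPF2 and 0.643 and 1.44 CPM for H3K14cr, and its folds of 1.24 (0.77 to 1.89) and 1.39 (0.95 to 1.96) did not differ from the chromosome mean beyond counting error. HBD had 0.385 and 1.05 CPM for DPF2 and 1.01 and 0.345 CPM for H3K14cr, at 1.00-fold (0.58 to 1.60) and 0.74-fold (0.43 to 1.18), so that the libraries of one antibody differed more than the antibodies did. HBB, the adult beta gene, had 0.514 and 0.601 CPM for DPF2 and 0.919 and 0.921 CPM for H3K14cr, at 0.71-fold (0.37 to 1.23) and 1.13-fold (0.74 to 1.65). H3K14cr was the higher in both libraries at HBB, yet the ratio of 0.618 came from 12 and 26 pooled reads and had an interval of 0.284 to 1.27. These 3 genes, all of whose intervals hold 1, could not be told apart from the chromosome mean at this depth. The flanks of the beta locus were lower than the chromosome mean, and over them the DPF2 and H3K14cr folds were 2.34 and 2.04 at HBE1, 1.505 and 1.34 at HBD, and 1.205 and 1.81 at HBB.

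HBG1 and HBG2, the fetal gamma genes, were the lowest of all. HBG1 had 1 read in each DPF2 library, and 1 and 3 reads in the H3K14cr libraries. HBG2 had 0 and 1 reads in the DPF2 libraries, and 1 and 5 reads in the H3K14cr libraries. The pooled folds were 0.12 (0.01 to 0.43) and 0.17 (0.05 to 0.44) at HBG1 and 0.06 (0.00 to 0.33) and 0.26 (0.10 to 0.57) at HBG2, all below the chromosome mean. Like the adult alpha genes, they are near-identical copies, so the same limit applies to their values. Signal lay beside them: the tile chr11:5273001-5274000, between HBG1 and HBG2, had 1.03 and 1.73 CPM for DPF2 and 0.92 and 1.27 CPM for H3K14cr. Between HBD and HBG1, the adjoining tiles chr11:5264001-5265000, chr11:5265001-5266000 and chr11:5266001-5267000 had 0.827 to 1.497 CPM in the 4 libraries, at mean folds over the chromosome of 2.58 to 3.02 for DPF2 and 2.64 to 2.90 for H3K14cr, and the middle one was the fourth highest tile of the beta locus for DPF2 and the fifth for H3K14cr. Another stretch lay past HBB, on the side away from HBD, where chr11:5246001-5247000 had 0.90 and 1.35 CPM for DPF2 and 1.93 and 1.15 CPM for H3K14cr. Of the 75 tiles of the beta locus, 8 (10.7%) held no read in any library, against 1 of 145 tiles (0.690%) in the alpha locus.

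**Figure D3:**
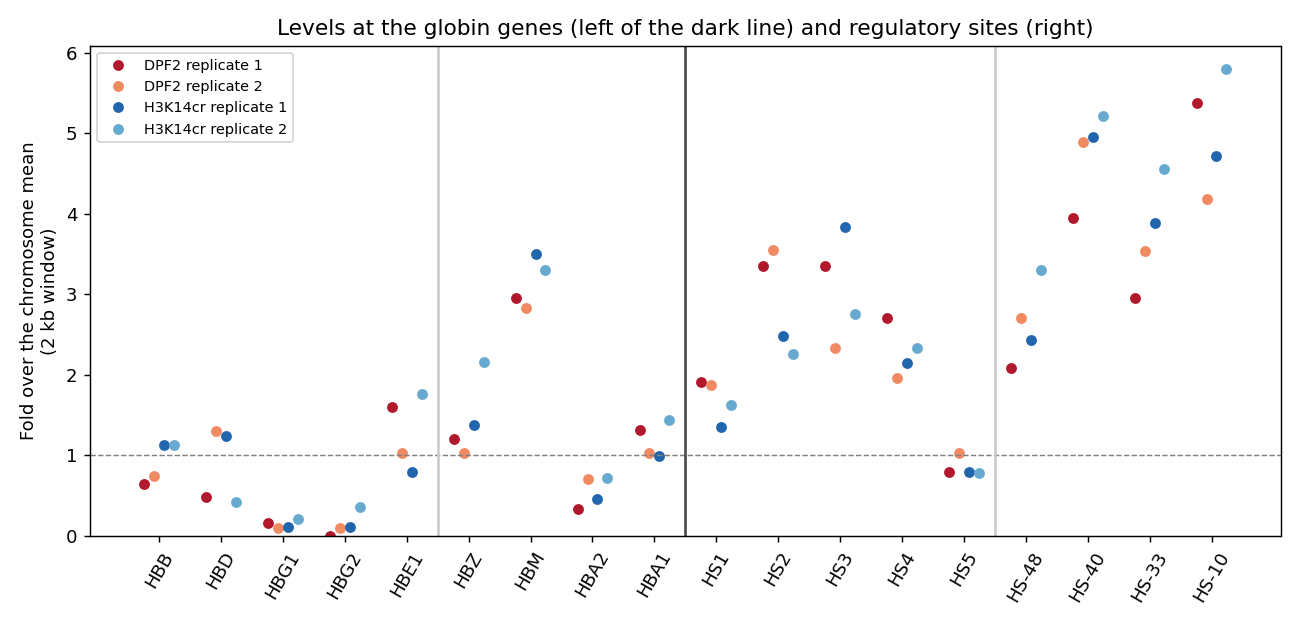
Fold over the chromosome mean (vertical axis) in the 2 kb window around each of the 18 elements (horizontal axis), 1 point per library. Red and orange points are the DPF2 libraries and blue points the H3K14cr libraries; the dashed line is the chromosome mean, the dark line divides genes from sites, and pale lines divide the beta from the alpha members. The 4 alpha sites, HBM, and HS2 and HS3 of the beta locus stand above 2 in all libraries, and HBG1 and HBG2 lie below 0.5.

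By mean CPM, the first 5 of the 18 elements came in the same order for both antibodies: HS-10, HS-40, HS-33, HBM and HS-48, all in the alpha locus. HS2, HS3, HS4 and HS1 followed for DPF2, and HS3, HBZ, HS2 and HS4 for H3K14cr. HBG1 and HBG2 closed both orders. In each order, every element overlapped its next neighbour in the exact Poisson intervals of pooled CPM (17 of 17 neighbouring pairs for each antibody). Such overlap does not show that neighbours are equal, and they were not tested against each other. Ranks far apart had separate intervals. HS-10 had 5.40 CPM (4.46 to 6.49) for DPF2 in pooled reads, and HBB, ranked 16, had 0.569 CPM (0.294 to 0.993). For H3K14cr HS-10 had 6.48 CPM (5.57 to 7.49), and HBB, ranked 13, had 0.920 CPM (0.601 to 1.35). Nearness was measured as the Euclidean distance between elements in log2(CPM + 0.5) over the 4 libraries. By this measure HS-40 and HS-10 were each other's nearest element (0.481), as were HBG1 and HBG2 (0.401) and HBA1 and HS1 (0.380), while HBM was nearest to HS-33 (0.521) and HBZ to HBA1 (0.593).

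Few globin tiles passed the test for enrichment, and none of those that did holds a member gene or a named site. A tile was called for an antibody when both libraries passed a one-sided Poisson test (p at most 0.001 after Benjamini-Hochberg adjustment) at a fold of at least 3. The background was the chromosome mean or, where higher, the mean of the surrounding 20 kb. In the alpha locus 1 of 144 covered tiles was called for DPF2 (0.694%, against 0.215% of all covered tiles) and 5 for H3K14cr (3.47%, against 0.416%). In the beta locus 0 of 67 were called for either antibody. With 5582 DPF2 and 10802 H3K14cr tiles called in the genome, those shares rest on 1 and 5 tiles. When only 1 library of an antibody had to pass, the alpha locus had 3 DPF2 tiles from either library and 6 H3K14cr tiles from either library. The beta locus then had 0 DPF2 tiles from replicate 1 and 2 from replicate 2, and 1 H3K14cr tile from either library. Of all covered tiles, 0.310% and 0.482% passed in DPF2 replicates 1 and 2, and 0.560% and 0.651% in H3K14cr replicates 1 and 2.

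The single alpha tile called for both antibodies was chr16:103001-104000, at 2.95 and 4.28 CPM for DPF2 and 5.05 and 4.66 CPM for H3K14cr, with mean folds over the surrounding 20 kb of 4.02 and 5.35. The next tile, chr16:104001-105000, was called for H3K14cr, at 1.54 and 2.18 CPM for DPF2 and 3.40 and 3.91 CPM for H3K14cr. So was chr16:128001-129000, at 3.85 and 3.30 CPM for DPF2 and 5.33 and 5.35 CPM for H3K14cr. In these upstream tiles every H3K14cr value exceeded every DPF2 value. The remaining tiles called for H3K14cr, chr16:230001-231000 and chr16:231001-232000, lay past HBA1, with centres 3800 and 4800 bp from its position. The first had 3.21 and 2.40 CPM for DPF2 and 5.42 and 5.70 CPM for H3K14cr, and the second 2.95 and 3.15 CPM for DPF2 and 4.78 and 4.03 CPM for H3K14cr. By gene order in the GRCh38.p14 table, the genes before HBZ are POLR3K, SNRNP25, RHBDF1, MPG and NPRL3, and those after HBA1 are HBQ1, the theta globin gene, and LUC7L. Which of these genes the called tiles touch in hg19 was not analysed here.

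The surrounding 20 kb set the bar in this raised stretch of chromosome 16. With the chromosome mean alone as background, 11 alpha tiles were called for DPF2 (7.64%, against 1.11% of all tiles) and 25 for H3K14cr (17.4%, against 2.12%), and all 11 DPF2 tiles were among the 25. They included chr16:163001-164000, which holds HS-40, at 3.72 and 3.53 CPM for DPF2 and 2.76 and 3.51 CPM for H3K14cr, and both tiles at HS-10. Of these, chr16:193001-194000 stood at 3.85 and 2.63 CPM for DPF2 and 2.67 and 3.91 CPM for H3K14cr. Both sites were thus called for each antibody against the chromosome, with mean folds of 6.20 for DPF2 and 5.20 for H3K14cr at the HS-40 tile. Against the surrounding 20 kb the HS-40 tile reached 3.39-fold and 2.78-fold for DPF2 and 2.02-fold and 2.17-fold for H3K14cr. In the beta locus the chromosome mean gave 1 tile for each antibody and none shared. For DPF2 it was chr11:5302001-5303000, the tile with HS2, at 1.80 and 1.502 CPM for DPF2 and 1.10 and 0.86 CPM for H3K14cr. For H3K14cr it was the adjoining chr11:5301001-5302000, at 1.67 and 2.03 CPM for DPF2 and 1.65 and 1.497 CPM for H3K14cr. In the second tile DPF2 was not lower than H3K14cr: its mean was 1.85 CPM, against 1.58 CPM, but its first library alone missed the call.

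**Figure D4:**
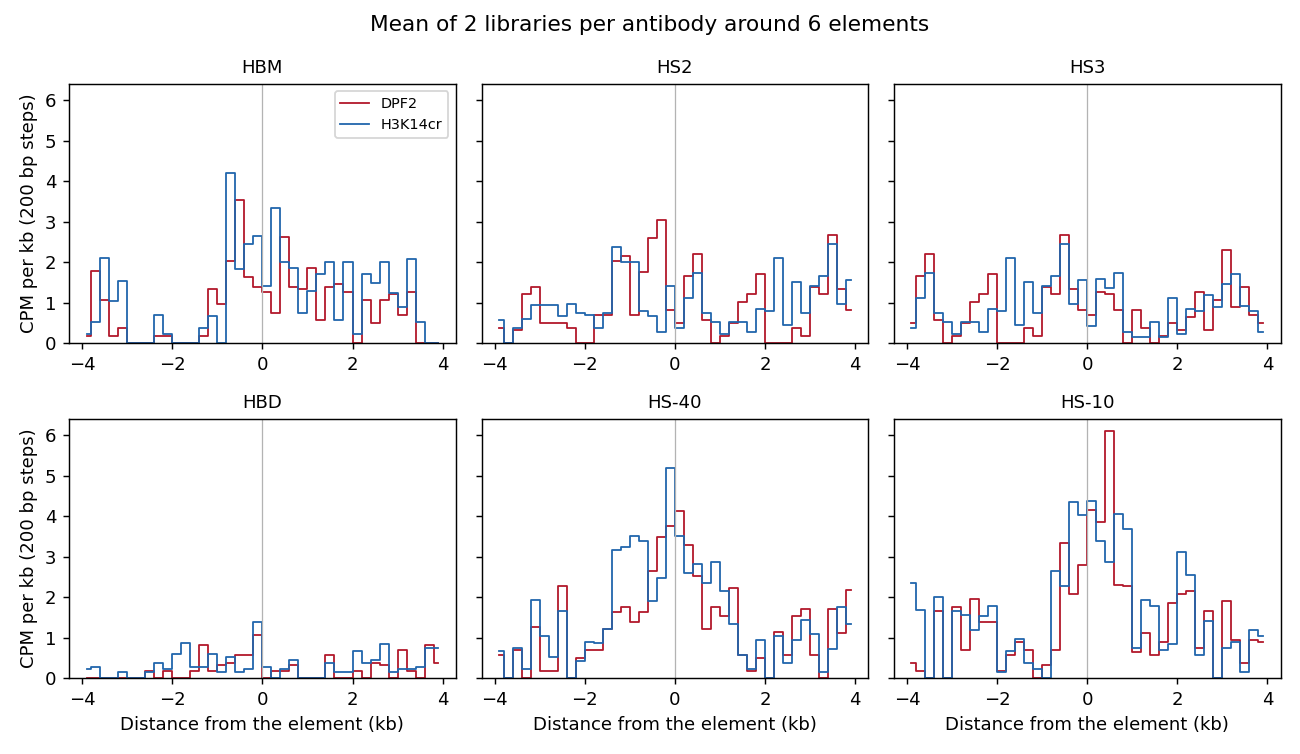
Mean CPM per kb of the 2 libraries of each antibody (vertical axis), in steps of 200 bp, by distance in kb from 6 elements (horizontal axis, increasing with genome position). DPF2 is red and H3K14cr blue, without error bars because the libraries of an antibody count as 1 sample. HS-40 and HS-10 rise for both antibodies around the position, HBM has a broader rise, and HBD stays low throughout.

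Around the sites the shapes of the profiles of the antibodies were alike in outline and differed in detail, as far as few reads can show. At HS-40 the mean profiles of both antibodies were highest in the steps around the position. By library, the highest 400 bp stretch lay 0 and 300 bp past the position for DPF2, and for H3K14cr it lay 800 bp before the position in replicate 1 and at 0 in replicate 2. The H3K14cr mean had a further shoulder up to 1400 bp before it, at 3.16 to 3.51 CPM per kb, where DPF2 had 1.39 to 1.77. At HS2 the highest 400 bp stretch for DPF2 lay 400 and 500 bp from the position toward HBE1, with 10 and 15 reads, and that for H3K14cr lay 1100 bp from it in both libraries, with 11 and 15 reads. These offsets did not overlap between antibodies, but each rests on at most 15 reads and they were not tested. At HBM the highest stretch lay 700 and 400 bp before the position for DPF2 and 600 and 200 bp before it for H3K14cr, so these overlapped. At HS4 the stretches were within 200 bp of each other in all libraries. Across the tiles of a locus, mean DPF2 and mean H3K14cr ranked alike, with Spearman's rho of 0.861 over 67 tiles in the beta locus and 0.814 over 144 in the alpha locus, against 0.815 over all covered tiles. Tiles share libraries, mappability and base composition, so these values are a description without a test.

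The test between the antibodies asked where DPF2 and H3K14cr depart from each other. Each 1 kb tile with a mean of at least 10 reads was tested with limma on log2(CPM + 0.5), with adjustment over 255612 tiles of the genome. This took in 115 globin tiles, 15 in the beta and 100 in the alpha locus. None was higher in DPF2 (0 of 115, against 0.202% of all tiles), and 3 were higher in H3K14cr (against 1.19% of all tiles), all in the alpha locus. edgeR's quasi-likelihood test gave the same counts of 0 and 3. At an unadjusted p under 0.05 there were 22 globin tiles of the 115, against 12.4% of all tiles.

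The tile chr16:230001-231000, past HBA1, differed by -0.88 (SE 0.19, adjusted p = 0.00382, limma) on the log2 scale, DPF2 minus H3K14cr. The tile chr16:127001-128000, with 2.31 and 2.18 CPM for DPF2 and 5.05 and 4.49 CPM for H3K14cr, differed by -0.94 (SE 0.21, adjusted p = 0.00402). The third, chr16:104001-105000, differed by -0.83 (SE 0.23, adjusted p = 0.0349). At all 3 both H3K14cr libraries lay above both DPF2 libraries, and 2 of the 3 were tiles called enriched for H3K14cr. With either H3K14cr library left out, none of the 3 passed (0 tiles in both cases), in fits where the lone H3K14cr library is assumed to vary like the DPF2 libraries. The differences themselves stayed between -0.74 and -1.02. With either DPF2 library left out, which leaves 1 library for DPF2, the differences at these tiles stayed between -0.63 and -1.06. The smallest was at chr16:104001-105000 without DPF2 replicate 1. Quantile normalization also left none, and scaling by the median of ratios left 1; it moved the median log2 difference of all tiles from -0.11 to 0.00. Against that median of -0.11, the median of the alpha tiles was -0.15 and that of the beta tiles -0.01, and after the rescaling they were -0.03 and 0.09.

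**Figure D5:**
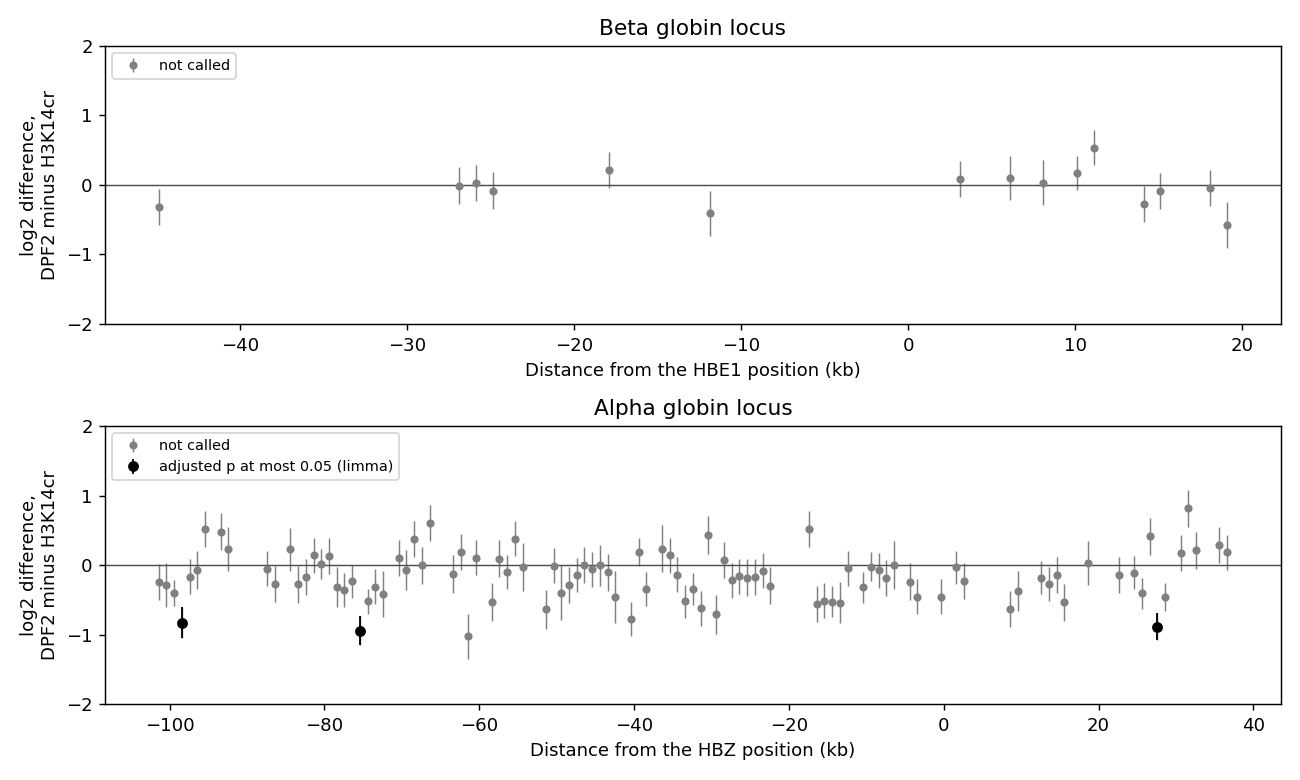
log2 difference, DPF2 minus H3K14cr, from limma on log2(CPM + 0.5) (vertical axis) for each tested 1 kb tile of the beta and the alpha locus, by distance in kb from HBE1 and HBZ (horizontal axis). Points are estimates with bars of 1 SE, and black points are tiles with an adjusted p of at most 0.05. The 3 black points are all below 0 and all in the alpha locus.

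The tiles that hold HBZ, HBM and 8 of the 9 named sites had enough reads to be tested, and none of these passed. The tiles of the other 7 genes and of HS5 held too few reads and were not tested. At the HS-40 tile the difference was 0.19 (SE 0.21, adjusted p = 0.771, limma), and at the HS-10 tile, chr16:192001-193000, it was -0.32 (SE 0.22, adjusted p = 0.599, limma). The tile just before HS-40, chr16:162001-163000, was lower for DPF2, with 0.90 and 2.33 CPM for DPF2 and 3.12 and 2.71 CPM for H3K14cr, but missed the threshold (-0.78, SE 0.25, adjusted p = 0.0927, limma). In the beta locus the tile with the lowest p was that of HS2, where DPF2 was the higher, by 0.54 (SE 0.26, unadjusted p = 0.0386, adjusted p = 0.367, limma). Over the 2 kb windows, the interval of the ratio of pooled reads, DPF2 over H3K14cr, lay wholly below 1 at 2 of 18 elements, HBZ (0.574, interval 0.351 to 0.914) and HS-33 (0.752, 0.566 to 0.992), and at none wholly above 1. These intervals are not adjusted for the 18 elements. They rest on scaling to total reads, under which the median log2 difference of all tested tiles was -0.11. Scaling by the median of ratios, which moved that median to 0.00, was not applied to them. The upper bound at HS-33 (0.992) and the lower bound at HS2 (0.994) lie close to 1, so these counts can depend on the scaling.

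The surroundings of the loci differed as well. In 100 kb on either side of the beta locus the level was 0.53-fold and 0.62-fold for DPF2 and 0.62-fold and 0.63-fold for H3K14cr, whereas the flanks of the alpha locus lay at 1.35-fold and 1.34-fold for DPF2 and at 1.40-fold and 1.35-fold for H3K14cr. The alpha flanks are cut by the chromosome end before the locus, and they held 117 covered kb against 179 for the beta flanks. By gene order, olfactory receptor genes such as OR51V1 and OR51B4, which are used in olfactory neurons, flank the beta cluster. The whole beta locus stood at 1.18-fold and 1.23-fold for DPF2 and 1.30-fold and 1.28-fold for H3K14cr, and the whole alpha locus at 1.96-fold and 1.97-fold for DPF2 and 2.17-fold and 2.32-fold for H3K14cr. Both loci thus exceeded their flanks in every library. What DNA copy number, base composition and the mappable share of each tile contribute to these levels was not tested.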

How the data were processed

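The authors deposited, per the file contents, a signal value for each 100 bp bin with at least 1 read, scaled to 10000000 reads per library and rounded to 2 decimals. Bowtie2 (no version) and the builds mm9 and hg19 are listed in the submitters' processing notes; the positions were read as hg19, and the handling of duplicates and of reads with several matches is not given in the sources used here. Dividing by the deposited value of 1 read (1.284, 0.751, 0.919 and 0.576 in the 4 libraries) gave whole reads within 0.005 for all but 1, 3, 4 and 0 values. Reads were summed in 1 kb tiles. Enrichment was tested with a one-sided Poisson test and the difference between antibodies with limma (trend); both were tested on simulated data. The named elements were all 9 genes and the 9 sites, the enriched tiles, and the 5 tiles with the highest mean CPM per locus and antibody; the HS positions are approximate. The members and lists were chosen with earlier results of these data known. Windows, intervals, spans and motif matches are descriptions. Replicate numbers were not used to pair the libraries, except in an alternative. Alternatives covered tile size and position, fold, background, depth, scaling, pseudocount, filter, test, pairing and each library left out. Tests ran in limma 3.58.1 and edgeR 4.0.16 under R 4.3.3. Other steps ran in Python 3.11.15 with scipy 1.17.1, pandas 2.3.3 and numpy 2.4.6, and figures were drawn with matplotlib 3.10.9. A count of 0 was taken to allow 3 reads.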

Additional observations from a re-analysis of the deposited data

How the results depend on the processing

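Depth limits most values: the 2 kb windows hold 1 to 183 pooled reads. In the beta locus, enriched DPF2 tiles numbered 1 with the chromosome mean alone and 2 with the libraries summed, and 0 to 2 with a library left out; enriched H3K14cr tiles numbered 1 with the chromosome mean alone, the surrounding 100 kb or the libraries summed, and 1 with either library left out. In the alpha locus, enriched DPF2 tiles numbered 0 with 2 kb tiles or a fold of at least 5, 4 with a fold of at least 2 or the libraries summed, 11 with the chromosome mean alone, 3 with the surrounding 100 kb and 3 with either library left out; enriched H3K14cr tiles numbered 2 with 2 kb tiles, 0 with a fold of at least 5 and 25 with the chromosome mean alone, and 6 with either library left out. The other alternatives moved these counts by less than 1.5 times. The share of all covered tiles called ranged over the alternatives from 0.0502% to 1.11% for DPF2 and from 0.0960% to 2.12% for H3K14cr. The lowest shares came with a fold of at least 5 and the highest with the chromosome mean alone. Globin tiles higher in DPF2 numbered 0 in the alternatives that kept all libraries. This was not so in every fit that left 1 library for DPF2. Those higher in H3K14cr numbered 1 with median-of-ratios scaling (0.299% of all tiles) and 0 with quantile normalization (0.0689%). They numbered 2 with 2 kb tiles (0.525%) or no filter (0.0427%). With a library left out, the differences at the 3 called tiles stayed between -0.63 and -1.06. No called difference reversed; chr16:230001-231000 passed in 9 of 13 alternatives (adjusted p 9.46e-05 to 0.499, limma or edgeR), chr16:127001-128000 in 9 of 12 (0.00146 to 0.665) and chr16:104001-105000 in 6 of 13 (0.00178 to 0.667). The median fold of the 18 elements, 1.66, became 2.13 within 500 bp and 2.07 over the flanks. Over the flanks the beta sites HS3 and, for DPF2, HS2 and HS4 stood above HS-40 and HS-10, and HBE1 above HBM for DPF2 (2.34-fold against 2.15-fold). With flanks as background 20 of 36 element folds moved by over 1.5 times, against 9 with 2 kb, 8 with 500 bp, and 3 and 5 without replicates 1 and 2. The causes were not tested. With the replicate block, 0 globin tiles were higher in DPF2 and 3 in H3K14cr, as without it (589 and 3630 tiles genome-wide, against 516 and 3032); deviations of same-numbered libraries correlated at 0.00147, so the libraries share only a number.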
